A study of Homo sapiens with 4 samples.

Results

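Protein phosphatase 6 (PP6) is described here through 7 genes chosen by name: the catalytic subunit PPP6C, the regulatory subunits PPP6R1, PPP6R2 and PPP6R3, and the ankyrin repeat subunits ANKRD28, ANKRD44 and ANKRD52. They are 7 of the 61806 genes in the deposited count table, and each of the 7 passed the low-count filter that left 17030 genes for testing. The set was put together with the difference of ANKRD52 between the groups already known. That difference and those of its partners in the same comparison are therefore given as a description. Counts of calls among the 7 stand beside the share over all genes, and nothing is read from them. ANKRD52 had 4289 and 4327 counts in the control libraries, against 10408 and 10008 in the COL8A1 libraries, while the other 6 genes differed by at most 0.12 on the log2 scale in either direction.

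The RNA came from U251-MG, an established human glioblastoma line whose genotype is labelled WT, grown in DMEM with serum. The COL8A1 group (2 libraries) carried a lentiviral pCDH vector with a CMV promoter driving the COL8A1 cDNA, and the negative control group, NC (2 libraries), carried the negative control vector. COL8A1 encodes a chain of collagen VIII. The labels give no time after infection, do not give whether the lines are clones or mixed populations, and name no separate cultures behind replicate libraries; the spread between replicates may thus be technical.

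Library totals ran from 27923796 to 33576228 counts and TMM scaling factors from 0.993 to 1.007. COL8A1 had 77 and 82 counts in NC and 4290 and 2259 in the COL8A1 libraries, in the direction of the labels. Of 7 markers of glioma and astroglial cells, VIM, NES, CD44, SOX9 and SLC1A3 were at 27.2 CPM (counts scaled to library size) or more in every library, while GFAP lay between 0.564 and 2.05 CPM and S100B between 1.36 and 2.58 CPM. All 7 had a higher mean in COL8A1 libraries. None passed an adjusted p of 0.05 in edgeR, where 0.0117% of all genes tested did, and 3 had an unadjusted p under 0.05, against 6.07%: SOX9 (log2 fold change 0.24), the glutamate transporter SLC1A3 (1.04, from 27.3 and 27.2 CPM in NC to 52.8 and 59.2 CPM in COL8A1 libraries) and GFAP (1.63, from 21 and 19 counts to 65 and 51). For 4 of the 7 both COL8A1 libraries were above both NC libraries, against 18.9% of all genes. The 7 summed to 3597 and 4105 CPM in NC and 4327 and 3857 CPM in COL8A1 libraries, which overlap. VIM alone, at 2600 to 3140 CPM, made up most of each sum. The part of such marker differences in those of the PP6 genes was not tested. Of 8 markers of other cell types, CD3E had 0 counts in every library, PTPRC, EPCAM, PECAM1, RBFOX3 and MBP stayed under 0.5 CPM, CD68 reached 5.55 CPM, and the cadherin CDH5 was at 60.1 to 78.3 CPM. These 8 summed to 68.3 and 68.8 CPM in NC and 82.4 and 65.1 CPM in COL8A1 libraries.

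PP6 is a serine/threonine phosphatase related to PP2A and PP4. Its catalytic subunit binds a subunit with a SAPS domain (PPP6R1, PPP6R2 or PPP6R3), and an ankyrin repeat protein (ANKRD28, ANKRD44 or ANKRD52) joins the complex as a scaffold. The enzyme acts on Aurora A kinase bound to its activator TPX2 at the mitotic spindle, and on condensin, DNA-PK and signalling kinases. A complex of ANKRD52 and PPP6C removes phosphates from AGO2, a core protein of microRNA silencing, after casein kinase 1 alpha has added them.

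The coding sequences of the 3 ankyrin genes are shown first, because the results turn on 1 of 3 related transcripts differing, and because reads can be assigned only where the sequences differ. A stretch of 90 coding bases is given 5′ to 3′ from the GENCODE release 29 transcripts, around the longest run that ANKRD52 and ANKRD28 share. Capitals mark bases that differ from ANKRD52.
ANKRD52: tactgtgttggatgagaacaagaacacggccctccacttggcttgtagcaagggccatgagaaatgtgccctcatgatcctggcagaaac
ANKRD28: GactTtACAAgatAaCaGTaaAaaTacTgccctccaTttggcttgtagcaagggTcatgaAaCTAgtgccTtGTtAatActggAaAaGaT
ANKRD44: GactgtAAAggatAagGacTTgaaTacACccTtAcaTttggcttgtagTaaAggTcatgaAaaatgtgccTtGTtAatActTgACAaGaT
In each gene the stretch spans the junction of exons 25 and 26. On GRCh38 it lies at chr12:56244096-56244404 for ANKRD52 (coding bases 2754 to 2843), chr3:15677019-15677531 for ANKRD28 (2649 to 2738) and chr2:196995424-196998388 for ANKRD44 (2697 to 2786), all on the minus strand with the intron inside the interval. ANKRD28 differed from ANKRD52 at 28 of the 90 bases and ANKRD44 at 29.

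Over the whole coding sequence, ANKRD52 was 60.8% identical to ANKRD28 (3093 aligned bases) and 62.1% identical to ANKRD44 (3153 aligned bases), and ANKRD28 and ANKRD44 were 66.5% identical to each other. The longest identical run was 17 bases between ANKRD52 and ANKRD28 (ttggcttgtagcaaggg, inside the stretch above) and also 17 bases between ANKRD52 and ANKRD44 (cacttagctgcctacaa). Every window of 50 bases in the annotated transcripts was then compared with those of all other genes of the annotation on both strands. ANKRD52 shared 0 of its 8864 windows with another gene, ANKRD28 0 of 11607 and PPP6C 0 of 4537. The share was 0.533% for ANKRD44, 0.763% for PPP6R2, 1.53% for PPP6R3 and 7.02% for PPP6R1. The comparison covers annotated transcripts only, and the read length is not given in the sources used here.

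The ankyrin subunits were first compared between the vectors. ANKRD52 (ENSG00000139645; GRCh38 chromosome 12, 56237807 to 56258391, minus strand) is a protein-coding gene. Its coding transcript has 28 exons and 8688 bases, of which the last exon holds 5586 (64.3%). Its level was 140 and 128 CPM in NC replicates 1 and 2, against 327 and 360 CPM in the COL8A1 libraries. Both COL8A1 libraries were above both NC libraries, with a gap far wider than the spread inside either group. The means were 134 ± 8.12 CPM in NC, against 344 ± 23.2 CPM in COL8A1 libraries (SD, n = 2 each), a 2.56-fold difference (log2 fold change, written log2FC from here on, 1.36, standard error SE 0.084). In RNA of whole cultures, a level per cell and a share of cells that carry the transcript cannot be told apart.

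ANKRD28 (ENSG00000206560; chromosome 3, 15667236 to 15859771, minus strand), the paralog with the next highest counts, was at 112 and 111 CPM in NC, against 113 and 118 CPM in COL8A1 libraries. The groups did not overlap, but the distance between them was of the size of the spread within the COL8A1 group (log2FC 0.04, SE 0.068). ANKRD44 (ENSG00000065413; chromosome 2, 196967017 to 197311173, minus strand) had the lowest counts of the 7 genes, 540 and 595 in NC and 624 and 435 in COL8A1 libraries. Its level was 17.6 and 17.7 CPM in NC, against 19.6 and 15.7 CPM in COL8A1 libraries, so that 1 COL8A1 library lay above and 1 below both NC libraries (log2FC 0.00, SE 0.152).

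**Figure D1:**
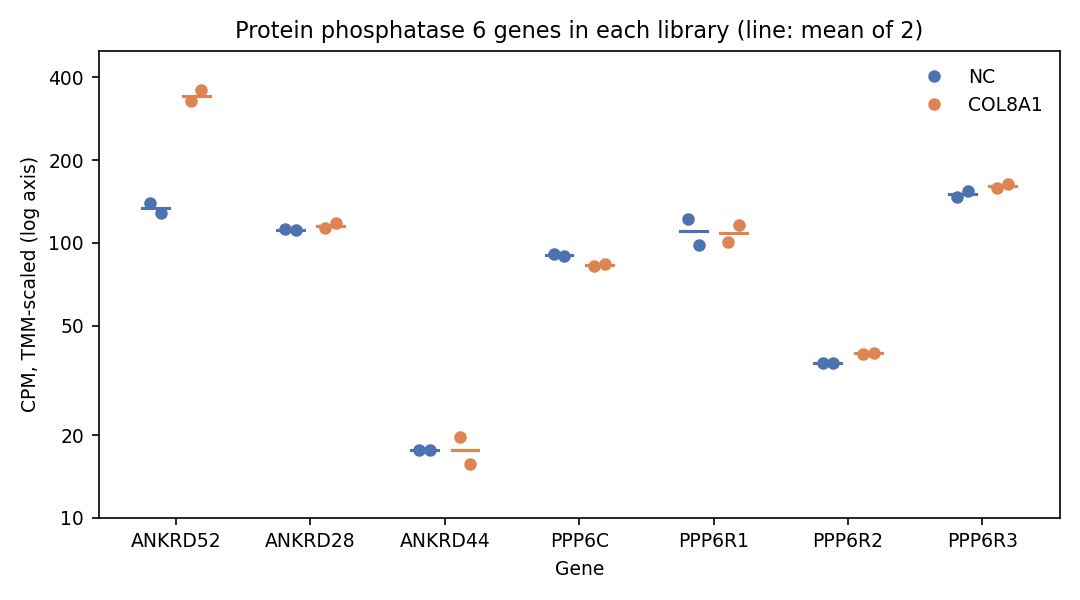
Level of each PP6 gene in CPM on a log axis, with 1 point per library (blue NC, orange COL8A1, replicate 1 left of replicate 2) and a line at the mean of the 2 libraries. ANKRD52 stands at 128 and 140 CPM in NC and at 327 and 360 CPM in COL8A1 libraries, while the points of the other 6 genes lie close together.

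The catalytic subunit and the SAPS subunits showed differences of at most 0.12 on the log2 scale. PPP6C (ENSG00000119414; chromosome 9, 125146573 to 125189939, minus strand), the phosphatase itself, was at 91.2 and 89.7 CPM in NC, against 82.1 and 83.8 CPM in COL8A1 libraries. Both COL8A1 libraries lay below both NC libraries, in the opposite direction to ANKRD52 (log2FC −0.12, SE 0.072). PPP6R2 (ENSG00000100239; chromosome 22, 50343304 to 50445090, plus strand) was at 36.5 and 36.7 CPM in NC, against 39.4 and 39.9 CPM in COL8A1 libraries, again without overlap (log2FC 0.12, SE 0.090).

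PPP6R3 (ENSG00000110075; chromosome 11, 68460731 to 68615334, plus strand), the SAPS subunit with the most counts, was at 147 and 155 CPM in NC, against 158 and 164 CPM in COL8A1 libraries (log2FC 0.09, SE 0.068). Its groups did not overlap, with 155 CPM in the higher NC library and 158 CPM in the lower COL8A1 library. PPP6R1 (ENSG00000105063; chromosome 19, 55229780 to 55258995, minus strand) was at 122 and 98.5 CPM in NC, against 101 and 116 CPM in COL8A1 libraries. Both COL8A1 values lay between those of the NC libraries (log2FC −0.02, SE 0.137).

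Of the 7 genes, 0 passed an adjusted p of 0.05 in edgeR, where 0.0117% of all genes tested did. At an unadjusted p under 0.05, 1 of the 7 was called (ANKRD52), against 6.07% of all genes. In DESeq2 1 of 7 passed after adjustment, again ANKRD52, against 1.06% of all genes (5.76% at an unadjusted p under 0.05, with ANKRD52 again the 1 PP6 gene), and in limma-voom 0 of 7 passed, against 0.0117% (1 at an unadjusted p under 0.05, against 6.23%). The groups did not overlap for 5 of the 7 genes, 4 higher and 1 lower in COL8A1 libraries, where 37.5% of all genes had groups without overlap (18.9% higher and 18.6% lower). An absolute log2FC of at least 1 was reached by 1 of the 7, against 5.21% of all genes. Since the set was chosen on this comparison, these counts support nothing about it.

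Ratios between 2 genes of the same library do not depend on how libraries are scaled. The log2 ratio of ANKRD52 counts to ANKRD28 counts was 0.32 and 0.21 in the NC libraries, against 1.54 and 1.62 with COL8A1, a difference of 1.32 between the group means. To ANKRD44 the log2 ratio was 2.99 and 2.86 in NC and 4.06 and 4.52 in COL8A1 libraries, a difference of 1.37. To PPP6C it was 0.62 and 0.52 in NC and 2.0 and 2.1 in COL8A1 libraries, the widest of the 6 differences at 1.48. Against PPP6R1, PPP6R2 and PPP6R3 the differences in log2 ratio were 1.37, 1.24 and 1.27. The ratio of ANKRD28 to ANKRD44 differed by 0.05 between the group means, less than its spread inside the COL8A1 group (2.52 and 2.91).

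Levels of different genes were compared per kilobase of transcript, taking all annotated exons of a gene as its length. On this scale ANKRD52 was at 15.2 ± 0.921 CPM per kilobase in NC and 39.0 ± 2.64 in COL8A1 libraries (SD, n = 2 each). PPP6C was at 20.4 ± 0.247 and 18.7 ± 0.265, PPP6R3 at 18.2 ± 0.681 and 19.3 ± 0.512, and PPP6R1 at 16.7 ± 2.5 and 16.5 ± 1.66. Next came ANKRD28 at 9.91 ± 0.0678 and 10.2 ± 0.309, then PPP6R2 at 6.84 ± 0.0281 and 7.41 ± 0.0663, and ANKRD44 at 1.38 ± 0.0024 and 1.38 ± 0.219. In NC libraries the order was thus PPP6C, PPP6R3, PPP6R1, ANKRD52, ANKRD28, PPP6R2 and ANKRD44, where PPP6R1 could not be separated from PPP6R3 or from ANKRD52 within the spread of its libraries. In COL8A1 libraries ANKRD52 stood first, and PPP6C and PPP6R3 lay within 1 CPM per kilobase of each other on this scale.

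The 3 ankyrin transcripts together amounted to 26.5 ± 0.986 CPM per kilobase in NC and 50.6 ± 2.73 in COL8A1 libraries. ANKRD52 made up 58.3% and 56.4% of this sum in NC, against 76.3% and 77.8% with COL8A1. The share of ANKRD28 went from 37.4% ± 1.14 to 20.2% ± 0.478 and that of ANKRD44 from 5.2% ± 0.203 to 2.74% ± 0.581, although the mean level per length of neither was lower in COL8A1 libraries. ANKRD44 stood at 1.37 and 1.38 CPM per kilobase in NC and at 1.53 and 1.22 in COL8A1 libraries, 1 above and 1 below both NC values. Relative to PPP6C, the summed ankyrin level was 1.32 and 1.28 in NC and 2.63 and 2.78 in COL8A1 libraries. The sum of the 3 SAPS subunits was 41.8 ± 1.79 CPM per kilobase in NC and 43.3 ± 2.23 in COL8A1 libraries, and PPP6R1, PPP6R2 and PPP6R3 held shares of 39.9%, 16.4% and 43.7% in NC and 38.1%, 17.1% and 44.7% in COL8A1 libraries. The composition of the SAPS pool therefore differed by less than the spread of PPP6R1 between its NC libraries (42.9% and 36.9%).

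The order depends on the length used. With the longest coding transcript of each gene in place of all exons, PPP6R3 at 29.9 ± 1.12 and PPP6R1 at 27.8 ± 4.15 CPM per kilobase stood above PPP6C at 20.8 ± 0.252 in NC libraries. ANKRD28 then stood above ANKRD52 in NC, at 17.0 ± 0.116 and 15.4 ± 0.935. In COL8A1 libraries PPP6R3 was at 31.7 ± 0.839 and PPP6C at 19.1 ± 0.271, no longer close, and ANKRD52 stood first of the 7 in COL8A1 libraries at 39.6 ± 2.68. ANKRD52 then made up 44.2% ± 1.35 of the ankyrin sum in NC and 66.4% ± 1.35 in COL8A1 libraries. These are transcript levels, and no protein was measured.

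**Figure D2:**
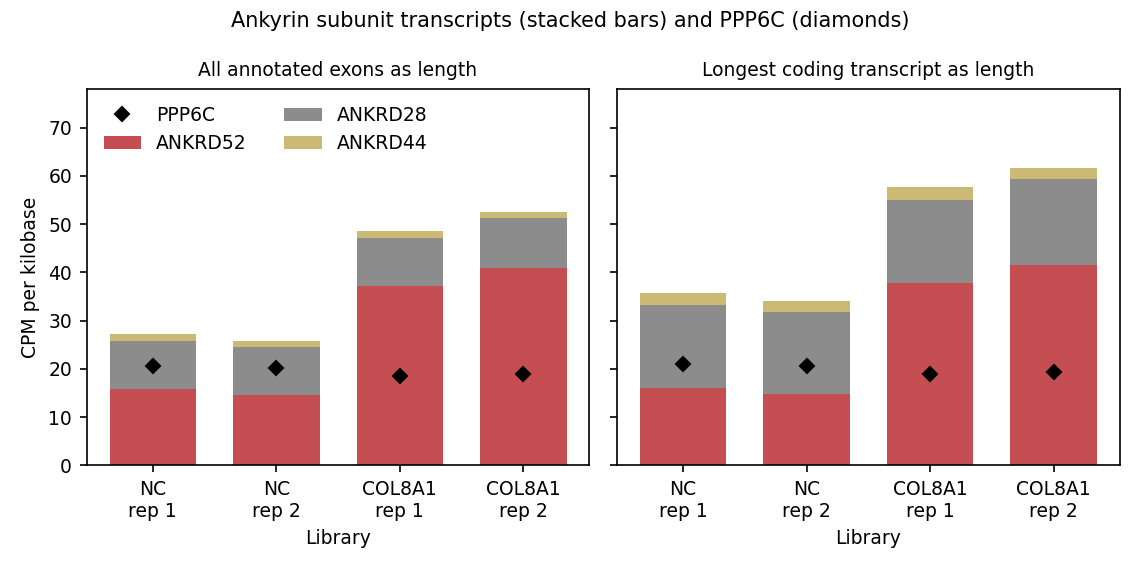
Summed level of the ankyrin subunit transcripts in CPM per kilobase for each library (stacked bars) with PPP6C as black diamonds, using all annotated exons (left) or the longest coding transcript (right) as gene length. The red ANKRD52 part is larger in both COL8A1 libraries under either length, and the grey ANKRD28 part keeps nearly the same height.

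The PP6 values were set beside those of all genes. The 4633 genes averaging at least 50 CPM over the 4 libraries had a median absolute log2FC of 0.08 and a 95th percentile of 0.42. Of these genes 5, with ANKRD52 among them, were higher by at least the log2FC of ANKRD52, and 5 were lower by at least that size. The other 6 PP6 genes, of which ANKRD44 and PPP6R2 lay under 50 CPM, had absolute values of 0.00 to 0.12. ANKRD52 was chosen for its difference, so its place at 1.36 is a description.

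**Figure D3:**
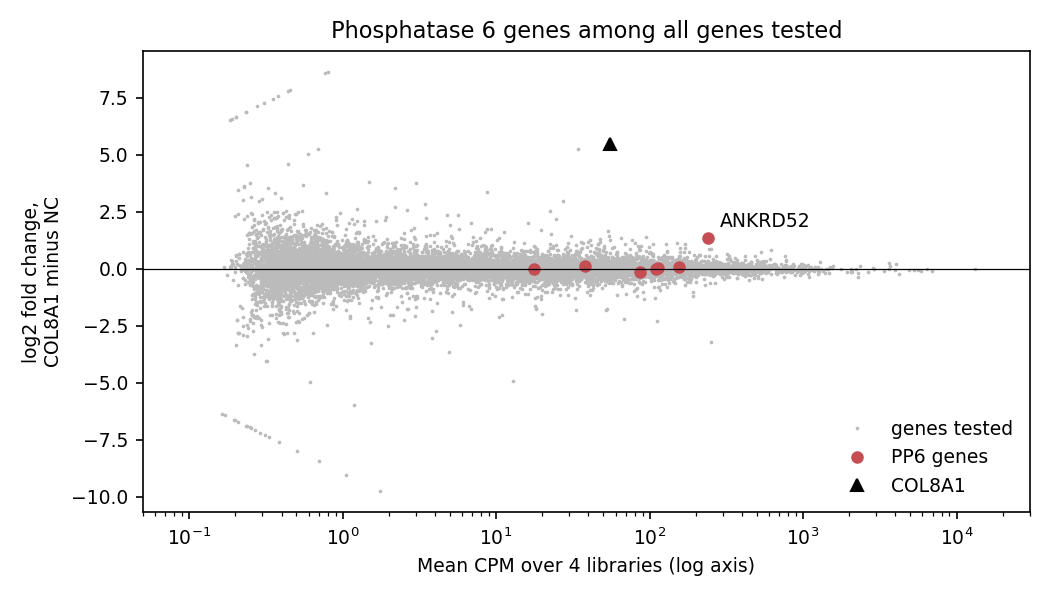
Log2FC (COL8A1 minus NC) against mean CPM over the 4 libraries (log axis) for the 17030 genes tested, with the 7 PP6 genes in red and COL8A1 as a triangle. ANKRD52, at a log2FC of 1.36, lies above most genes of at least 50 CPM but not above all genes, and the other 6 red points lie within 0.12 of the zero line.

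Neighbouring genes were examined to see whether the counts of ANKRD52 could be read apart from theirs. At its 3′ end ANKRD52 shares 40 exon bases with SLC39A5, a zinc transporter gene on the opposite strand, which had 2, 6, 2 and 4 counts in NC 1, NC 2, COL8A1 1 and COL8A1 2 and was too low to test. With its counts added to those of ANKRD52 the log2FC was again 1.36. So few counts could not have moved the rounded value, so this sum tests nothing. On the same side, NABP2, which encodes a protein that binds single-stranded DNA, had 1673, 1855, 1614 and 1460 counts in the same order (log2FC −0.08, SE 0.085). RNF41, a ubiquitin ligase gene, had 1454, 1967, 1318 and 1956 counts, higher in the library numbered 2 of each group (0.08, SE 0.280). Beyond the 5′ end, COQ10A, a coenzyme Q binding protein gene 8.47 kb away, had 428, 638, 524 and 603 counts (0.22, SE 0.222). CS, citrate synthase of the citric acid cycle, had 9973, 10143, 9595 and 8467 counts (−0.05, SE 0.066). The noncoding neighbours ENSG00000258199 and ENSG00000258260 had at most 13 counts in any library and were too low to test.

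Other PP6 genes also share exons with counted genes, which are named here outside the rule for named genes. PPP6R2 shares 91 bases with SBF1 on the opposite strand (3947, 3916, 3406 and 3476 counts in NC 1, NC 2, COL8A1 1 and COL8A1 2). PPP6R1 shares 500 bases with ENSG00000276570 on its own strand (78, 82, 42 and 64 counts). PPP6R3 shares 186 bases with ENSG00000260808 on the opposite strand (5, 4, 9 and 1 counts in the same order). Reads in the stretch that PPP6R1 shares cannot be told apart by strand. For the overlaps on opposite strands, the strand setting of the counting is not given in the sources used here. Whether reads there were kept apart is thus not known.

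The genes whose profile was most like that of ANKRD52 were sought among 10039 other genes averaging at least 300 counts, by the root mean square difference of log2 CPM after centring each gene on its mean over the 4 libraries. The closest was PITPNB, a phosphatidylinositol transfer protein gene (difference 0.074), at 28.9 and 29.8 CPM in NC, against 72.8 and 85.3 CPM in COL8A1 libraries. ZHX1, a zinc finger and homeobox gene (0.075), was at 23.9 and 24.0 CPM in NC, against 58.2 and 58.5 CPM in COL8A1 libraries. VAPB, a membrane protein gene of the endoplasmic reticulum (0.076), was at 38.7 and 35.2 CPM and at 96.4 and 91.5 CPM.

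TDG, the thymine DNA glycosylase of base excision repair (0.096), was at 29.9 and 28.7 CPM in NC, against 62.8 and 69.7 CPM in COL8A1 libraries. KCTD20 (0.136) was at 105 and 83.2 CPM in NC, against 204 and 208 CPM in COL8A1 libraries. In all 5 genes both COL8A1 libraries were above both NC libraries, by 2.19-fold to 2.69-fold, a difference that the search itself selects for. Within 0.2 of ANKRD52 lay 17 genes, none of them a PP6 gene and 1 of them the astroglial marker SLC1A3 (0.167). With 4 libraries in 2 groups, such likeness says little more than that these genes were higher in COL8A1 libraries by a like factor.

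**Figure D4:**
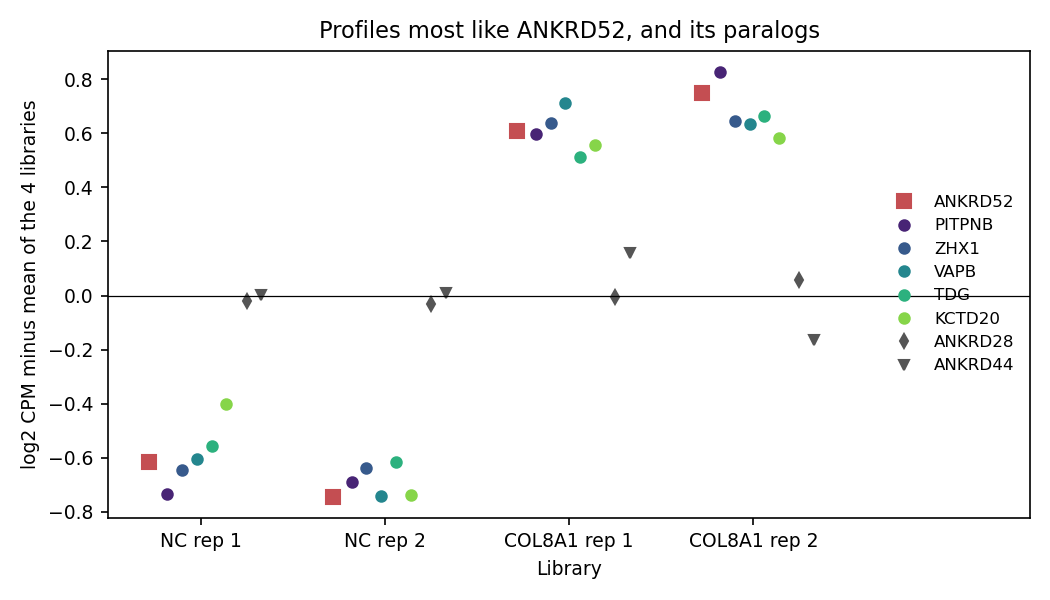
Log2 CPM of ANKRD52, of the 5 genes with the most similar profile and of the paralogs ANKRD28 and ANKRD44, each centred on its mean over the 4 libraries, with 1 point per library. ANKRD52 and its 5 nearest genes are low in both NC libraries and high in both COL8A1 libraries, while the paralogs stay near 0.

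The relatives and partners of PP6 were counted over lists of genes, and no set test was run. In edgeR 0 of the 63 genes tested in 5 lists (65 listed) passed after adjustment, against 0.0117% of all genes, and 1 had an unadjusted p under 0.05, against 6.07%. DESeq2 called 0 of them after adjustment, against 1.06% of all genes, and 1 at an unadjusted p under 0.05, against 5.76%. Limma-voom called 0 after adjustment, against 0.0117%, and 1 unadjusted, against 6.23%. Of the 63 genes 30 were higher and 33 lower, with a median log2FC of −0.02, where the median of all genes was 0.00. None of the 63 reached an absolute log2FC of 1, against 5.21% of all genes, a share that includes genes with few counts. Among genes averaging at least 50 CPM, as many of the 63 do, the 95th percentile was 0.42. Nothing is therefore read from the lists having no such gene. The PP6 genes and these lists were fitted in the same model. Only ANKRD52 stood above 1, and it was chosen for its difference, so its place beside the lists is a description.

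The catalytic relatives of PPP6C and the PP2A scaffolds (5 genes tested) had a median log2FC of 0.02. PPP2CA, the main catalytic subunit of PP2A, was at 105 and 115 CPM in NC and 176 and 118 CPM in COL8A1 libraries. Both COL8A1 libraries were above both NC libraries, replicate 2 by little (log2FC 0.42, SE 0.203, edgeR unadjusted p = 0.0972). PPP2R1A, a PP2A scaffold, had a log2FC of −0.14 (SE 0.089). The regulatory subunits of PP2A and PP4 (18 tested of 20) ran from −0.21 to 0.21 with a median of 0.03. Their smallest p-values belonged to the PP4 subunits PPP4R3B (0.21, SE 0.090) and PPP4R3A (−0.21, SE 0.093), 2 related genes with opposite signs.

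Genes for assembly and inhibition of PP2A-like phosphatases (10 tested) had 7 members lower and 3 higher, with a median of −0.07. CIP2A, an inhibitor of PP2A, had a log2FC of −0.14 (SE 0.094) and the inhibitor ANP32A one of −0.29 (SE 0.20). IGBP1, TIPRL and the other members lay between −0.19 and 0.08.

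Genes of proteins that PP6 acts on, or that bind them (16 tested), had 9 members lower and 7 higher, with a median of −0.02. TPX2, the activator of Aurora A, was at 431 ± 11.0 CPM in NC, against 385 ± 21.1 CPM in COL8A1 libraries (n = 2; log2FC −0.16, SE 0.066). MAP3K7, the kinase TAK1, had a log2FC of −0.20 (SE 0.145). AURKA, which was picked out on seeing its values, was at 197 and 196 CPM in NC, against 88.8 and 198 CPM in COL8A1 libraries, so that COL8A1 replicate 1 alone was low (−0.46, SE 0.380).

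Genes of Argonaute phosphorylation and microRNA silencing (14 tested) had 8 members lower and 6 higher, with a median of −0.03. TNRC6C, a GW182 protein that binds Argonaute, had 1157 and 1105 counts in NC and 770 and 737 in COL8A1 libraries (log2FC −0.47, SE 0.121, edgeR unadjusted p = 0.0132), and it was the only gene of the 5 lists with an unadjusted p under 0.05 in edgeR. Its paralog TNRC6A went the other way (0.23, SE 0.098). AGO2 itself, the substrate of the ANKRD52 complex and named here for that role outside the rule for named genes, had a log2FC of 0.04 (SE 0.060), and the kinase gene CSNK1A1 one of −0.04 (SE 0.086). Among the other Argonaute genes, AGO3 and AGO4 were each at 0.05 (SE 0.109 and 0.149). AGO1, picked out on seeing its values, was at 143 and 146 CPM in NC, against 71.5 and 145 CPM in COL8A1 libraries. As for AURKA, COL8A1 replicate 1 alone was low (−0.42, SE 0.337).

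**Figure D5:**
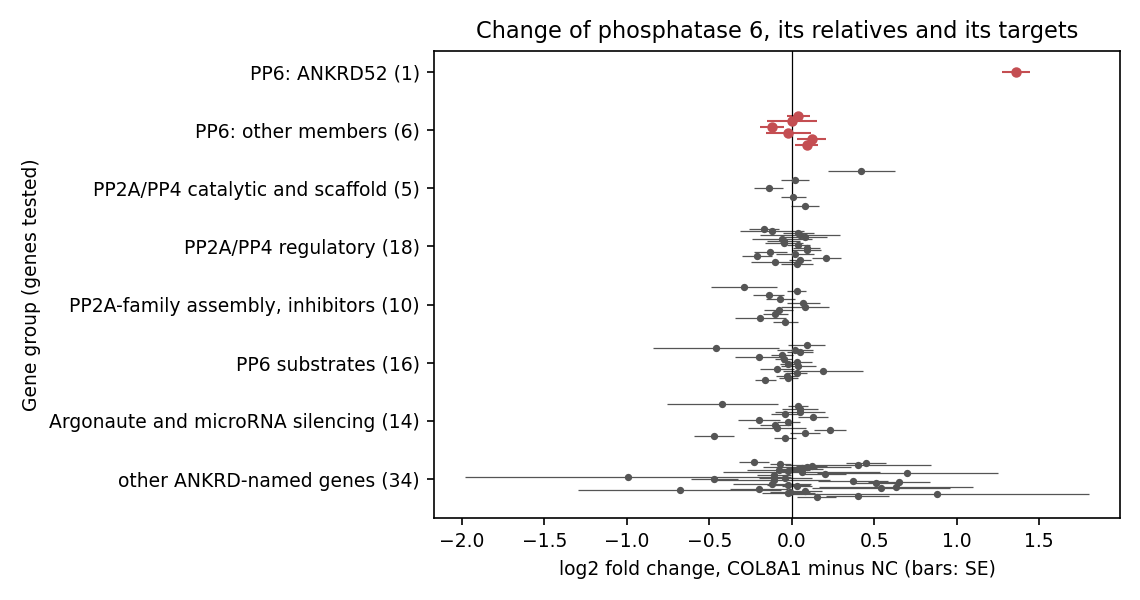
Log2FC (COL8A1 minus NC) with its standard error for ANKRD52, the other 6 PP6 genes, 5 lists of related genes and the other genes named ANKRD, 1 point per gene. ANKRD52, which was chosen for its difference, lies at 1.36, right of the point of every other gene drawn, the highest of which is at 0.88.

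Genes named ANKRD are grouped by their ankyrin repeats, a protein-binding fold, and most have no known tie to PP6. Besides the 3 PP6 subunits, 34 of 52 such genes in the table could be tested. Of these 19 were higher and 15 lower, with a median log2FC of 0.06 and a range from −0.99 to 0.88. In edgeR 0 passed after adjustment, against 0.0117% of all genes, and 4 had an unadjusted p under 0.05, against 6.07%. DESeq2 called 0 after adjustment, against 1.06% of all genes, and 4 at an unadjusted p under 0.05, against 5.76%. Limma-voom called 0, against 0.0117%, and 5 unadjusted, against 6.23%.

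The smallest p-values were those of ANKRD36C (log2FC 0.51, SE 0.132), ANKRD10 (0.45, SE 0.121) and ANKRD36B (0.65, SE 0.187), all at lower levels than ANKRD52. ANKRD10 was at 17.4 ± 0.135 CPM in NC, against 23.7 ± 2.23 CPM in COL8A1 libraries (n = 2). ANKRD36B and ANKRD36C are near-identical copies of 1 family, and their reads may be shared between them.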

How the data were processed

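Total RNA of 4 U251-MG libraries was sequenced, 2 per group, with groups and replicate numbers taken from the sample titles. The authors deposited raw read counts per gene without normalization. Per the submitters' processing notes, HISAT2 2.2.1 on hg38, featureCounts (version entered as 0.3) and Trim Galore 0.6.9 were used. For parameters, strand setting and annotation release: not given in the sources used here. One line that names no gene held 0 counts and was left out.

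Counts were fitted in R 4.3.3 with edgeR 4.0.16 (filterByExpr, TMM, quasi-likelihood F-test on group, 2 residual degrees of freedom), with Benjamini-Hochberg adjustment over 17030 genes and a threshold of 0.05. DESeq2 1.42.0 and limma-voom (limma 3.58.1) were alternatives. The fits were also run on simulated counts, drawn with a dispersion that followed the trend with mean count and left out gene-to-gene spread around it. At the adjusted threshold edgeR and limma-voom each made 12 false calls there among 16556 genes tested, and DESeq2 27 among 13068. Because of that dispersion setting, the simulation does not show how the fits perform on these data, and these counts do not rank the tools. Standard errors (SE) are the absolute log2 fold change over the square root of F. CPM use TMM-scaled library sizes, and log2 CPM for profiles a prior count of 2. PCR copies count as separate reads, and with 2 libraries per group the depth limits precision less than the replicates do. Gene positions and lengths come from GENCODE 29 (GRCh38, the build of hg38), which need not hold the gene models of the counting. Coding sequences were aligned with MAFFT 7.526.

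The members and lists were chosen with earlier results of these data known. The named genes are the 7 members, COL8A1, the 2 smallest p-values of each list, the 3 smallest of the other ANKRD genes, the overlapping gene and 3 nearest neighbours on each side of ANKRD52, and the 5 most similar profiles. Alternatives were other scaling, filters, tools, the replicate number as a block, counts summed over overlapping genes and each library left out.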

Additional observations from a re-analysis of the deposited data

How the results depend on the processing

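The log2 fold change of ANKRD52 was 1.35 to 1.36 under every scaling, filter, tool and block tried, and 1.28 to 1.43 with 1 library left out. The median of the other 6 PP6 genes, 0.02, ran from 0.02 to 0.08 with 1 library left out, the highest without COL8A1 replicate 1, and none of the 6 exceeded 0.17 in absolute value. Over all genes edgeR called 2, against 17 without a low-count filter, 180 in DESeq2 and 14 with robust shrinkage, which was chosen after seeing the data, and 0 to 3 with 1 library left out. Of the 5 lists, 1 gene had an unadjusted p under 0.05, against 1 to 7 with 1 library left out (7 without COL8A1 replicate 2), and of the other ANKRD genes 4, against 1 to 7 (7 without COL8A1 replicate 2, 1 without NC replicate 1 or COL8A1 replicate 1). Over all genes, calls at an unadjusted p under 0.05 also changed with the library left out. They too were most frequent without COL8A1 replicate 2. Compared with the fit of all 4 libraries, that rise over all genes was smaller in proportion than the rise in the lists or among the other ANKRD genes. Nothing is read from these calls, since they come from a fit with a lone library in 1 group. The cause of these differences was not tested. With a library left out 1 group holds a lone library, assumed to vary like the other group. The replicate numbers do not pair the libraries in the labels, and same-numbered libraries deviated from their group means with a correlation of −0.0452 over 10040 genes. With the replicate block edgeR called 1 gene, with 1 residual degree of freedom, and the ANKRD52 log2 fold change was 1.36. The order per length in NC cells turns with the gene length used for ANKRD52 against ANKRD28 and for PPP6C against PPP6R3 and PPP6R1. With 2 libraries a group, the standard errors of the other 6 genes ran from 0.068 to 0.152 beside differences of at most 0.12.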
